A study of Mus musculus with 22 samples.

Results

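The genes described here are 32 members of the p53 pathway: the gene for p53 itself (Trp53) and 31 genes named as its transcriptional targets or feedback partners. They were chosen by name, and a row counted as a member only where its gene symbol matched a listed name exactly. All 32 had a row in the day 0 and day 3 culture tables, which list 34866 genes, and all 32 had a row in the cartilage table, which lists 23911. RNA was sequenced in 22 mouse samples to compare tissue or cells with and without Dnmt1, the methyltransferase that copies DNA methylation onto newly made strands. Control chondrocyte cultures carried the genotype Dnmt1 flox, and the deleted cultures (cKO) carried Prrx1-Cre;Dnmt1 flox/flox. The cartilage samples were labelled flox and cKO. Whether the controls carried a Cre allele is not given in the sources used here. The Prrx1 promoter drives Cre in limb mesenchyme, so other cells of the limb that descend from it also lose the gene. Primary chondrocytes from knee articular cartilage of newborn mice were taken untreated (day 0, 3 control and 3 cKO cultures) or after 3 days with BMP2 (bone morphogenetic protein 2, a growth factor that drives chondrocyte maturation, at a dose the labels write as 100 ng/µl) (day 3, 4 control and 4 cKO cultures). Cartilage was taken at postnatal day 5 and treated with collagenase to remove connective tissue (4 control and 4 cKO samples). In each cartilage genotype, replicates 1 and 2 were male and replicates 3 and 4 female.

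p53 is a transcription factor that is held at low levels by the ubiquitin ligase Mdm2 and is stabilised by DNA damage and other stresses. It then binds pairs of short half-sites near its target genes and raises genes that stop the cell cycle, repair DNA, change metabolism or start cell death, among them Mdm2, which closes the loop. Its activity is regulated mainly through the protein, so the level of Trp53 RNA alone says little about it, and its target genes can also be driven by other factors.

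The half-site is where p53 touches DNA, so the promoter windows of the members were searched for it. The windows came from RefSeq on GRCm38.p6 and ran from 250 bases before to 50 bases after each start. They were found for 24 of the 32 members, in 31 windows. The p53 half-site decamer consensus (purines, C, A or T at the centre, G, pyrimidines, which reads the same on both strands) matched in 11 of the 24 members (45.8%) and in 9.55% of 27025 genes with a window. The full element of 2 half-sites with a spacer of at most 13 bases matched in 1 member, Cdkn1a (4.17%), and in 0.074% of all genes. A match is a description of letters and not a measured site. Some matching members also had a window at another start that held no half-site. These were Cdkn1a (chr17:29093519-29093818), Polk (chr13:96542530-96542829) and Sesn1 (chr10:41810324-41810623). The matching members are printed here with 10 bases on either side, the decamer in capitals, and the position of the decamer on the strand of the gene.
Trp53 chr11:69580284-69580293, plus strand: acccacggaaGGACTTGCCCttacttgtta
Mdm2 chr10:117710935-117710944, minus strand: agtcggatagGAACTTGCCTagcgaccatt
Ccng1 chr11:40755462-40755471, minus strand: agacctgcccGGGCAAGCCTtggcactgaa
Gadd45a chr6:67037438-67037447, minus strand: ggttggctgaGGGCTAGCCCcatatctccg
Ckap2 chr8:22186013-22186022, minus strand: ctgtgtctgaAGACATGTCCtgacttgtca
Bax chr7:45467090-45467099, minus strand: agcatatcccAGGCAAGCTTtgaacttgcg
Ei24 chr9:36797335-36797344, minus strand: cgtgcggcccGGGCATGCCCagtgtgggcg
Aen chr7:78895937-78895946, plus strand: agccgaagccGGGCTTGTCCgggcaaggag
Polk chr13:96519409-96519418, minus strand: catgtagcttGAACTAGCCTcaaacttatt
Sesn1 chr10:41887266-41887275, plus strand: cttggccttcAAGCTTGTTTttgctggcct
The eleventh, Cdkn1a, is shown as the 120 bases that end just before the annotated gene start (chr17:29090856-29090975, plus strand). Capitals mark both half-sites of the exact match, with a spacer of 12 bases between them. The decamer right after the second half-site (tgacatgttc) departs from the consensus at its first base alone, so the search did not count it.
Cdkn1a: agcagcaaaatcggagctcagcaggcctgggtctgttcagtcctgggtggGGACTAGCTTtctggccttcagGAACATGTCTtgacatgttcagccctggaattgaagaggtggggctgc
At day 0, 9 of the 11 members with a half-site had a call for a higher level in cKO and 2 for a lower one. For the 13 with a window and no half-site these counts were also 9 and 2. Of all genes tested at day 0, 33.0% were called higher and 31.6% lower. The share called among all genes with or without a half-site is not given here.

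Dnmt1 transcript was lower in every cKO sample than in every control sample (25.7 to 31.3 against 147.1 to 158.9 CPM at day 0, 11.6 to 36.4 against 64.9 to 83.5 at day 3, 11.8 to 14.3 against 34.5 to 48.6 in cartilage). CPM are counts per 1000000 counts of a library, with library sizes scaled by TMM factors. Libraries held 41749327 to 51741478 counts (day 0), 14434197 to 18918714 counts (day 3) and 1100198 to 1888896 counts (cartilage). Chondrocyte markers were present in all groups but lower in cKO. Their summed level was 52397 to 63652 against 144161 to 152038 CPM at day 0 (12 of 12 called lower), 1779 to 18979.8 against 102722 to 124957 at day 3 (10 of 12) and 35611 to 67641 against 73024 to 108252 in cartilage (3 of 12). The summed level of muscle markers was higher in cKO at day 0 (71.2 to 75.8 against 12.2 to 13.7 CPM, 5 of 6 tested called higher). It was also higher at day 3 (161 to 2088 against 1.69 to 2.23 CPM, 7 of 7). In cartilage it was 58.0 to 89.2 against 12.8 to 16.5 CPM, with 2 of the 7 listed genes tested and 2 called higher. Other lists moved too. Hypertrophic chondrocyte markers were higher in cKO at day 3 (4370 to 5319.8 against 438 to 905 CPM, 5 of 7 called higher and 2 lower), and 5 of 7 were called lower in cartilage (187 to 1810.4 against 1097 to 2224 CPM). At day 0, 7 of 9 fibroblast or perichondrial markers were called lower (2915 to 3553 against 4984 to 7301 CPM) and 4 of 5 macrophage markers higher (6.33 to 7.37 against 2.85 to 3.76 CPM). Of the muscle markers, Myod1 and Myf5 were at 0 in the day 0 controls, Myl1 in the day 0 cKO cultures and Myf5 in all day 3 cultures. In cartilage, Myh3 was at 0 in all controls, and Myog and Myf5 were at 0 in all cKO samples. The part of these markers in the results on the p53 pathway was not tested. Fewer cells of a type and less RNA per cell cannot be told apart in these bulk samples. Replicate 4 of the cKO cultures at day 3 stood apart from the other 3: over all genes its counts differed from theirs by a chi-square of 136.3 to 152.4 per degree of freedom, against 7.77 to 11.5 among the other 3.

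The first comparison was between cKO and control cultures before BMP2. At day 0, p53 pathway genes were mostly higher without Dnmt1. All 32 members passed the filter on low counts, and 24 rose, 5 fell and 3 did not pass the test (adjusted p under 0.05 in edgeR's quasi-likelihood test). Of 15530 genes tested at day 0, 64.5% were called, 33.0% higher and 31.6% lower. The median log2 fold change was 0.48 over the members and 0.01 over all genes. Control and cKO values did not overlap in 30 of the 32 members, against 70.3% of all genes. A call with at least a doubling (log2 of 1 or more) was made for 7 of the 32 members, against 11.3% of all genes.

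The 6 genes of p53 and its feedback circuit all rose at day 0. Trp53 (chromosome 11, 69580359 to 69591873, GRCm38) measured 92.7, 101.4 and 95.8 CPM in controls 1 to 3 and 116.5, 108.0 and 111.9 CPM in cKO cultures 1 to 3 (log2 fold change 0.21, SE 0.0413, edgeR adjusted p 0.00148). Mdm2 (chromosome 10, 117688875 to 117710758) measured 92.7, 90.0 and 93.0 CPM in control and 112.6, 112.9 and 116.8 CPM in cKO (log2 0.31, SE 0.0294, edgeR adjusted p 1.59e-05). Both changes were small, yet every cKO culture lay above every control. Trp53inp1 (chromosome 4, 11156431 to 11174379), a stress protein that promotes p53 activity and autophagy, had the largest rise of the list. It went from 14.01, 14.8 and 14.7 CPM in control to 45.8, 45.4 and 41.2 CPM in cKO, 3.04-fold (log2 1.60, SE 0.0553, edgeR adjusted p 4.14e-08). Phlda3, which competes with the kinase AKT for membrane lipids, went from 33.9, 31.8 and 30.4 to 63.5, 59.4 and 66.4 CPM (log2 0.98, adjusted p 8.37e-07). Ccng1 (cyclin G1, which acts on Mdm2) rose by 0.61 and the RNA-binding zinc finger gene Zmat3 by 0.46 on the log2 scale.

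Among the cell cycle genes, Cdkn1a doubled. It encodes p21, the inhibitor of cyclin-dependent kinases through which p53 stops division, and lies on chromosome 17, 29090976 to 29100727. Its level was 121, 114 and 119 CPM in control and 235, 224 and 251 CPM in cKO replicates 1 to 3 (118.0 ± 3.57 and 236.7 ± 13.8 CPM, SD, n = 3 each; log2 1.004, SE 0.0452, edgeR adjusted p 2.06e-07). The antiproliferative gene Btg2 went from 33.3, 28.9 and 30.1 to 66.1, 63.5 and 65.9 CPM (log2 1.08, adjusted p 4.31e-07). Plk2, a polo-like kinase induced by stress, went from 75.4, 71.7 and 70.3 to 198.3, 186.2 and 224.9 CPM (log2 1.49, adjusted p 1.72e-07). In each of these genes the lowest cKO culture was well above the highest control. Ckap2, a mitotic microtubule protein, rose by 0.83, and Plk3 was not called (log2 0.30, adjusted p 0.0861). Gadd45a, a stress sensor linked to DNA repair, went the other way, from 69.6, 71.2 and 70.9 to 58.5, 63.1 and 53.1 CPM (log2 −0.28, adjusted p 0.00218).

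Genes of cell death were called higher at day 0 with 1 exception, the receptor gene Fas (log2 0.19, adjusted p 0.0602). Its cKO values still lay above all controls (7.62 to 8.12 against 6.52 to 7.24 CPM). Among the receptors and their adaptors, the TRAIL receptor gene Tnfrsf10b went from 51.7, 48.1 and 50.4 to 75.8, 75.9 and 82.8 CPM (log2 0.64, adjusted p 2.95e-06). Eda2r, the receptor for ectodysplasin A2, went from 4.93, 3.90 and 4.23 to 7.16, 7.64 and 9.07 CPM (log2 0.87, adjusted p 2.12e-04). Pidd1, which builds the caspase-2 activating complex, went from 3.21, 3.43 and 3.52 to 5.78, 5.52 and 6.09 CPM (log2 0.78, adjusted p 8.15e-05). All 8 effectors inside the cell rose. Pmaip1 (Noxa), a BH3-only protein that frees the mitochondrial death pathway, was low but 2.68-fold higher, at 1.57, 1.64 and 1.11 CPM in control and 4.42, 3.43 and 3.80 CPM in cKO (log2 1.42, SE 0.173, adjusted p 8.22e-05). Bbc3 (Puma) moved less, from 9.67, 11.8 and 10.8 to 14.8, 14.02 and 13.7 CPM (log2 0.40, adjusted p 0.00225). Ei24, a protein of the endoplasmic reticulum that acts in autophagy, went from 43.8, 45.3 and 45.7 to 80.1, 76.5 and 80.3 CPM (log2 0.81, adjusted p 2.06e-07). Groups were apart in all 3. Dram1, a lysosomal protein of autophagy, went from 5.64, 3.92 and 3.76 to 7.97, 7.68 and 7.96 CPM (log2 0.82, adjusted p 8.7e-04). Apaf1, the core of the apoptosome, went from 47.5, 46.9 and 48.0 to 56.8, 59.2 and 63.5 CPM (log2 0.33, adjusted p 1.8e-04). The pore former Bax (0.37), the membrane protein gene Perp (0.49) and the nuclease gene Aen (0.15) also rose on the log2 scale.

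The repair and stress genes were divided. Polk, a translesion DNA polymerase, rose by 1.06 on the log2 scale (adjusted p 5.93e-07), while the damage recognition gene Ddb2, which shares 652 of its 2736 exonic bases with Acp2 on the opposite strand, fell from 5.98, 6.66 and 5.73 to 4.03, 3.56 and 4.32 CPM (log2 −0.62, adjusted p 7.54e-04). Xpc, another recognition gene of nucleotide excision repair, was not called (log2 0.01, adjusted p 0.955). Ephx1, the microsomal epoxide hydrolase, went from 36.5, 31.3 and 28.9 to 80.7, 85.2 and 83.6 CPM (log2 1.37, SE 0.0747, adjusted p 6.19e-07). Both sestrins, stress proteins that restrain mTORC1, fell. Sesn1 went from 17.1, 15.9 and 16.5 to 11.6, 10.9 and 11.1 CPM (log2 −0.56, adjusted p 3.44e-05). Sesn2 went from 111.6, 105.8 and 109.6 to 68.2, 71.2 and 59.9 CPM (log2 −0.72, adjusted p 6.38e-06), the deepest fall of the list. The call of Rrm2b, a ribonucleotide reductase subunit, was slight (log2 0.15, adjusted p 0.0407) and was lost without any 1 of the 6 libraries. Its transcript also shares 1051 bases at 96.1% identity with the gene Gm8616, so its counts are uncertain. That of the sulfatase gene Sulf2 (log2 −0.08, adjusted p 0.048) was lost without any 1 library except cKO replicate 3. In a fit of all 14 cultures together, 22 members were called at day 0, and Trp53, Perp, Gadd45a, Rrm2b, Ddb2, Sulf2 and Ckap2 were not (adjusted p 0.0763, 0.165, 0.223, 0.406, 0.0524, 0.568 and 0.0914).

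**Figure D1:**
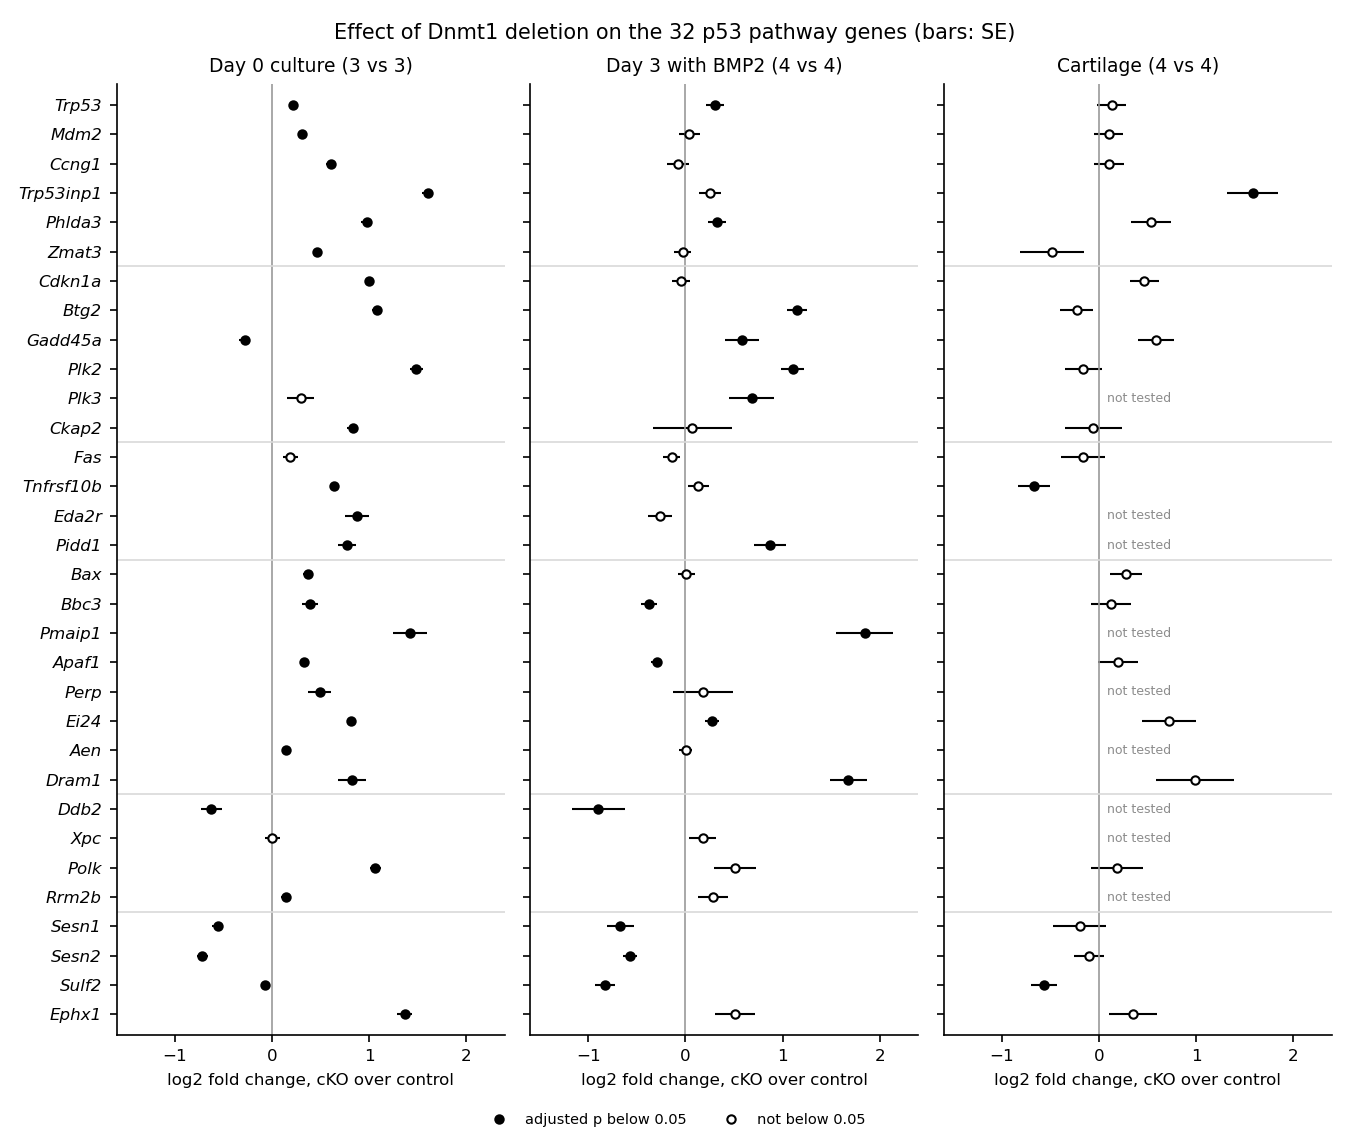
Log2 fold change of cKO over control (horizontal axis, bars are SE) for the 32 members. From top to bottom, rows hold p53 and its feedback, cell cycle, death receptors, effectors of cell death, DNA repair, and stress and matrix genes. The death receptor rows include Pidd1, which is not a receptor gene. Filled points passed an adjusted p of 0.05: 29 at day 0, 16 at day 3 and 3 of 23 tested in cartilage.

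The same comparison after 3 days of BMP2 gave a smaller and more divided pattern. All 32 members were tested at day 3, and 10 rose, 6 fell and 16 did not pass the test. Of 13924 genes tested at day 3, 48.1% were called, 25.5% higher and 22.6% lower. The median log2 fold change was 0.15 over the members and 0.01 over all genes. Control and cKO values did not overlap in 16 of the 32 members, as in 47.9% of all genes. A rise of at least a doubling was called for 4 members, as for 13.3% of all genes. At both days 8 members were called higher, of the 24 higher at day 0 and the 10 higher at day 3. Another 4 were called lower at both days, of 5 and 6, and 3 were called in opposite directions. Over 13758 genes tested at both days these counts were 2535, 2444 and 350. Leaving out control replicate 2 left 10 members called at day 3, with Trp53, Phlda3, Plk3, Gadd45a, Ddb2 and Ei24 no longer called (adjusted p 0.0533 to 0.104). Leaving out cKO replicate 4, which stood apart, gave 18.

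p21 and the main feedback genes no longer differed by the test at day 3. Cdkn1a measured 642.9, 538.1, 522.4 and 587.2 CPM in controls 1 to 4 and 530.9, 533.3, 544.3 and 607.0 CPM in cKO cultures 1 to 4 (log2 −0.05, SE 0.095, edgeR adjusted p 0.702). Mdm2 measured 157, 145, 135 and 145 CPM in control and 143, 141, 132 and 182 CPM in cKO (log2 0.04, SE 0.108, adjusted p 0.782). Trp53inp1 measured 115, 140.4, 168 and 129 CPM in control and 171, 163, 165.5 and 159 CPM in cKO (log2 0.25, SE 0.112, adjusted p 0.094). The 2 genotypes overlapped in all 3 genes, for Trp53inp1 through control replicate 3 alone. Trp53inp1 was called without that library (adjusted p 0.0118). Trp53 was called higher (84.3, 74.6, 72.8 and 83.7 against 99.6, 99.0, 108.0 and 83.9 CPM; log2 0.31, adjusted p 0.0226), but its groups overlapped through cKO replicate 4. Its call was lost without control replicate 2 or 3, or cKO replicate 1, 2 or 3 (adjusted p up to 0.0713). Phlda3 kept its rise at a smaller size, at 137, 114, 125 and 117 CPM in control and 156, 149.6, 139.6 and 173 CPM in cKO (log2 0.33, adjusted p 0.0157; 0.0553 without control replicate 2 and 0.0525 without control replicate 4). Ccng1 and Zmat3 were not called (log2 −0.08 and −0.03), although Ccng1 was called lower without cKO replicate 4 (log2 −0.20, adjusted p 0.0428).

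Btg2 and Plk2 were the cell cycle genes that were still more than doubled in cKO. Btg2 measured 22.0, 23.7, 24.5 and 20.8 CPM in control and 42.9, 53.2, 47.7 and 58.1 CPM in cKO (log2 1.149, SE 0.107, adjusted p 7.94e-05). Plk2 measured 40.04, 36.8, 38.1 and 32.8 CPM in control and 69.5, 71.5, 79.9 and 97.3 CPM in cKO (log2 1.11, SE 0.118, adjusted p 1.62e-04). Every cKO culture lay above every control culture for both. Gadd45a, lower at day 0, was higher at day 3, at 36.7, 42.4, 45.5 and 41.8 CPM in control and 71.3, 64.1, 73.3 and 40.4 CPM in cKO (log2 0.58, adjusted p 0.0245). Its cKO replicate 4 lay among the controls. Without that library the log2 fold change was 0.74 (adjusted p 8.92e-05), and the call was lost without any 1 of control replicates 1, 2 and 4 or cKO replicates 1 to 3 (adjusted p up to 0.0678). Plk3 was called higher (log2 0.68, adjusted p 0.0381), a call that held in only 1 of the 8 fits that left out a library, the one without cKO replicate 3. Ckap2 was not called (log2 0.07).

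The death genes were divided at day 3. Pmaip1 and Dram1 had the largest rises of the list. Pmaip1 measured 5.13, 3.73, 3.04 and 3.11 CPM in control and 10.4, 10.6, 11.5 and 21.5 CPM in cKO (log2 1.84, SE 0.291, adjusted p 0.00111). Dram1 measured 6.46, 3.29, 4.59 and 4.39 CPM in control and 14.6, 15.4, 16.0 and 13.8 CPM in cKO (log2 1.68, SE 0.191, adjusted p 2.16e-04). In both, the lowest cKO culture lay far above the highest control. Pidd1 measured 4.85, 3.57, 4.21 and 3.99 CPM in control and 6.93, 8.68, 6.15 and 8.58 CPM in cKO (log2 0.87, adjusted p 0.0031). Ei24 measured 79.2, 66.1, 72.6 and 70.6 CPM in control and 86.3, 84.2, 83.8 and 94.1 CPM in cKO (log2 0.27, adjusted p 0.0148; 0.0533 without control replicate 2). Bbc3 and Apaf1, both higher at day 0, had turned. Bbc3 measured 16.8, 17.7, 16.4 and 18.3 CPM in control and 14.1, 12.3, 13.9 and 12.99 CPM in cKO (log2 −0.38, adjusted p 0.00667). Apaf1 measured 48.2, 50.1, 51.6 and 48.5 CPM in control and 41.1, 40.2, 41.5 and 38.7 CPM in cKO (log2 −0.30, adjusted p 0.00313). Bax, Aen, Perp, Fas, Eda2r and Tnfrsf10b were not called, with log2 fold changes from −0.26 (Eda2r) to 0.18 (Perp). Tnfrsf10b measured 69.5, 67.8, 62.9 and 64.5 CPM in control and 65.9, 66.8, 67.6 and 89.9 CPM in cKO (adjusted p 0.338).

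The stress and matrix genes that were lower at day 0 stayed lower at day 3. Sesn1 measured 24.3, 34.1, 39.2 and 29.3 CPM in control and 20.3, 19.99, 19.3 and 20.3 CPM in cKO (log2 −0.67, adjusted p 0.00417). Sesn2 measured 112.0, 125.6, 107.7 and 122.0 CPM in control and 83.4, 77.3, 81.6 and 72.2 CPM in cKO (log2 −0.57, adjusted p 4.73e-04). Sulf2 (chromosome 2, 166073089 to 166155663), which trims sulfate from heparan sulfate at the cell surface, measured 241.4, 288.6, 255.6 and 294.5 CPM in control and 169.2, 152.1, 154.3 and 132.1 CPM in cKO (log2 −0.83, SE 0.101, adjusted p 3.03e-04). No cKO culture reached the lowest control in any of the 3. Ddb2 was low throughout, at 5.83, 6.35, 6.07 and 5.07 CPM in control and 4.54, 2.07, 3.78 and 2.14 CPM in cKO (log2 −0.90, adjusted p 0.0242; lost without control replicate 2 or 3 or cKO replicate 2, adjusted p up to 0.0604). Ephx1 measured 175, 175, 203 and 162 CPM in control and 218, 211.5, 205 and 384 CPM in cKO (log2 0.51, SE 0.205, adjusted p 0.069). Its groups did not overlap, and cKO replicate 4 held the widest gap: without it the log2 fold change was 0.24 with an adjusted p of 0.0285. Polk behaved alike (log2 0.51, adjusted p 0.0785; without cKO replicate 4, log2 0.22, adjusted p 0.0342). Xpc and Rrm2b were not called.

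**Figure D2:**
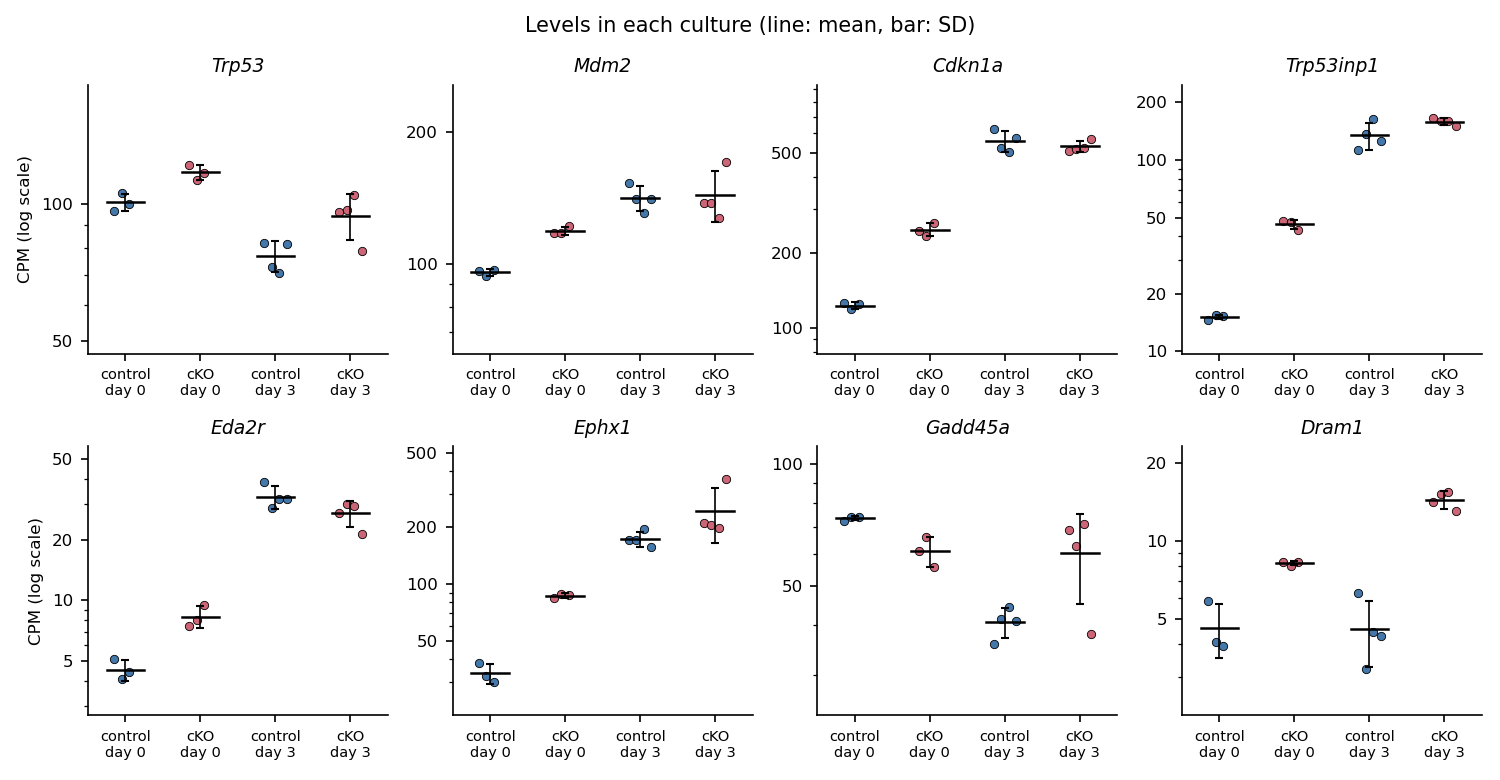
Level of 8 members in each culture (vertical axis, CPM on a log scale, from 1 scaling of all 14 cultures). Each point is a culture, the line is the group mean and the bar its SD. Control and cKO points are apart at day 0 and intermixed at day 3 for Cdkn1a and Mdm2. For Trp53inp1 at day 3 only control replicate 3 reaches the cKO points, while the Dram1 groups stay apart at both days.

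The change from day 0 to day 3 was then described within each genotype, in a fit of all 14 cultures. Day, BMP2 and the count table changed together, and depth was lower at day 3, so the change has no single source. In control cultures 19 members rose, 6 fell and 7 were not called. Of 14909 genes tested, 56.9% were called in the control change, 28.1% higher and 28.8% lower. The median log2 change was 0.50 over the members and 0 over all genes. In cKO cultures 16 members rose, 9 fell and 7 were not called. There 62.2% of all genes were called, 32.4% higher and 29.8% lower. The median log2 change was 0.29 over the members and 0.02 over all genes. In both genotypes 15 members rose and 5 fell, and 2 members, Bbc3 and Tnfrsf10b, rose in control and fell in cKO. The share of all genes with such joint calls is not given here, so these counts have no background to be read against. The falls of Bbc3 (log2 −0.21, adjusted p 0.0477) and Tnfrsf10b (log2 −0.23, adjusted p 0.0407) were slight. They were lost in 9 and 8 of the 14 fits that left out 1 library, with adjusted p up to 0.144 for Bbc3 (without cKO day 0 replicate 1) and up to 0.142 for Tnfrsf10b (without cKO day 0 replicate 3). The rise of Tnfrsf10b in control was lost without control day 0 replicate 2 (adjusted p 0.0512).

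The 3 largest rises in control belonged to Trp53inp1, Eda2r and Ephx1, followed by Cdkn1a. In this joint scaling the levels differ slightly from those above. Trp53inp1 rose from 15.1 ± 0.448 to 134.5 ± 21.7 CPM in control (SD, n = 3 and 4; 8.90-fold, log2 3.15, edgeR adjusted p 2.33e-09) and from 46.1 ± 2.59 to 158.6 ± 6.48 CPM in cKO (3.44-fold, log2 1.78, adjusted p 4.66e-08). Cdkn1a rose from 123.0 ± 3.82 to 557.7 ± 54.3 CPM in control (4.54-fold, log2 2.18, adjusted p 3.2e-09) and from 247.2 ± 14.7 to 533.1 ± 26.1 CPM in cKO (2.16-fold, log2 1.11, adjusted p 2.33e-07). Eda2r rose from 4.54 ± 0.55 to 32.6 ± 4.3 CPM in control (7.19-fold) and from 8.31 ± 1.05 to 26.9 ± 3.96 CPM in cKO (3.24-fold). In these 3 genes the cKO cultures started higher and ended near the control level. Ephx1 rose 5.18-fold in control and 2.81-fold in cKO. Phlda3 rose 3.60-fold and 2.26-fold, Zmat3 2.55-fold and 1.79-fold, Ccng1 2.50-fold and 1.54-fold, Sulf2 2.74-fold and 1.61-fold, and Fas 2.76-fold and 2.16-fold. Pmaip1 rose 2.42-fold and 3.18-fold, and Polk 2.19-fold and 1.47-fold (adjusted p 0.0682 in cKO without cKO day 0 replicate 2). Sesn1, Xpc and Aen also rose in both. Mdm2 rose 1.48-fold in control (adjusted p 1.29e-04) and 1.21-fold in cKO (adjusted p 0.0157; lost without cKO day 0 replicate 1 or 2, adjusted p 0.0527 and 0.0543). Trp53 fell in both genotypes (log2 −0.39 in control and −0.32 in cKO, adjusted p 0.00183 and 0.0065), and so did Plk3 (−1.87 and −1.50), Plk2 (−1.07 and −1.47), Perp (−0.997 and −1.33) and Btg2 (−0.53 and −0.49).

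The difference between the 2 changes is the genotype by day interaction, the effect of Dnmt1 deletion at day 3 minus that at day 0. It was called for 15 members: 13 in the negative direction and 2 in the positive. Of 14909 genes tested, 16.8% were called in the interaction, 6.89% negative and 9.94% positive. The median over the members was −0.37 and over all genes 0.02. The largest values were those of Trp53inp1 (−1.37, SE 0.141, adjusted p 1.04e-04), Eda2r (−1.15, SE 0.199, adjusted p 0.00227) and Cdkn1a (−1.07, SE 0.111, adjusted p 1.04e-04). Eda2r measured 39.7, 29.4, 32.7 and 32.4 CPM in control and 28.1, 30.6, 30.4 and 22.6 CPM in cKO cultures at day 3, with overlap between the genotypes. Ephx1 (−0.88, adjusted p 0.0308), Bbc3 (−0.79), Sulf2 (−0.77), Ccng1 (−0.70), Phlda3 (−0.67), Apaf1 (−0.65), Ei24 (−0.56), Tnfrsf10b (−0.53), Zmat3 (−0.51) and Bax (−0.38, adjusted p 0.029) made up the rest of the 13. They include the feedback, arrest, receptor and effector roles. The 2 positive values belonged to Gadd45a (0.84, adjusted p 0.0253), which was lower in cKO at day 0 and higher at day 3, and Dram1 (0.84, adjusted p 0.049), whose excess in cKO widened. Mdm2 and Trp53 were not called (−0.29, adjusted p 0.124, and 0.08, adjusted p 0.728). Leaving out 1 library at a time gave 11 to 19 called members, the highest without cKO day 3 replicate 4, when Mdm2, Plk2, Fas and Polk were also called negative. The calls of Dram1, Ephx1, Bax and Gadd45a were lost in 12, 10, 6 and 5 of the 14 fits that left out 1 library (adjusted p up to 0.144, 0.0834, 0.0803 and 0.0705). The other 11 called members kept their calls in all 14.

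**Figure D3:**
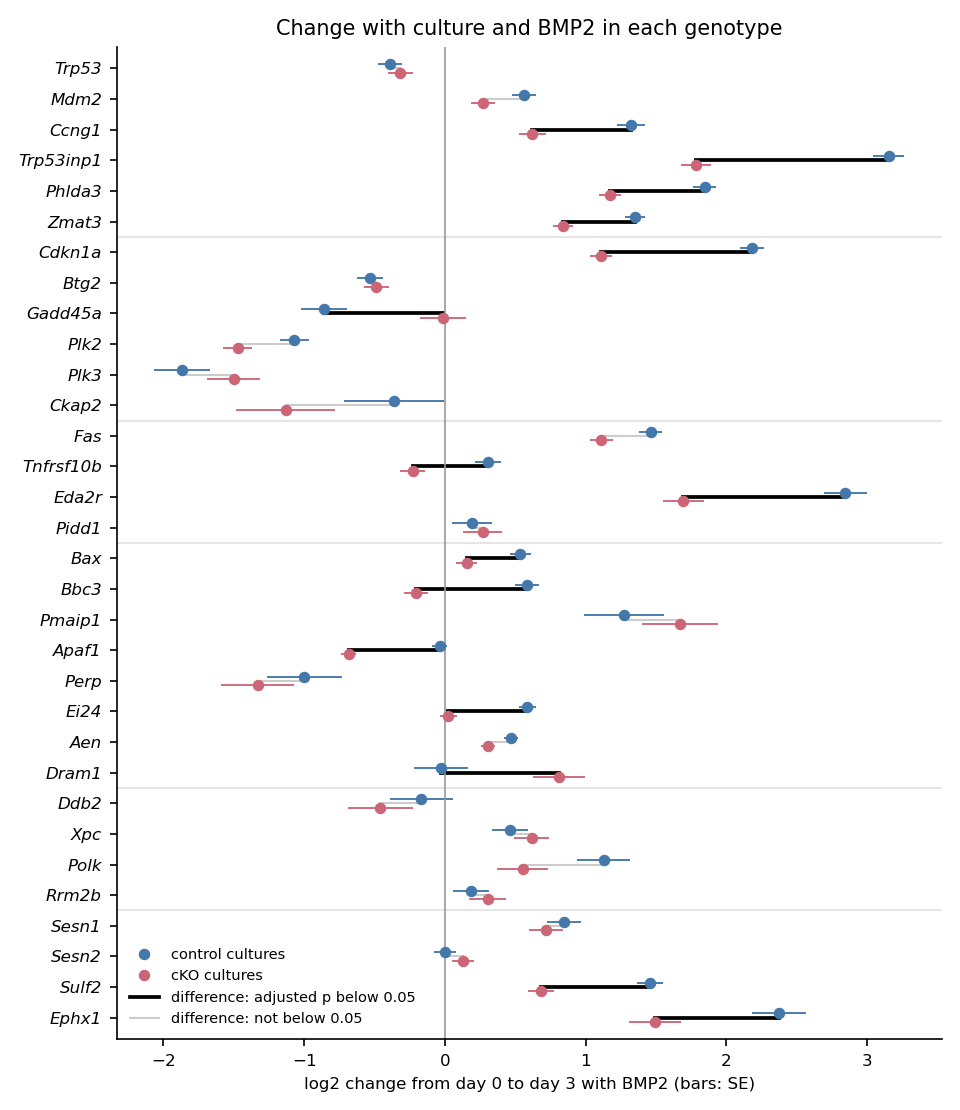
Log2 change from day 0 to day 3 (horizontal axis, bars are SE) of each member in control and in cKO cultures, with rows grouped by role. A black line joins the 2 values where their difference passed an adjusted p of 0.05 (15 members); in 13 of these the cKO point lies to the left of the control point.

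In cartilage the comparison covered fewer members and called few of them. Of the 32 members, 23 passed the filter on low counts, and 1 rose, 2 fell and 20 did not pass the test. Of 8793 genes tested in cartilage, 6.19% were called, 3.15% higher and 3.04% lower. The median log2 fold change was 0.12 over the 23 members and 0.01 over all genes. Groups did not overlap in 4 of the 23, as in 13.5% of all genes. The filter left out 9 members: Perp, Eda2r, Plk3, Aen, Rrm2b, Xpc, Ddb2, Pmaip1 and Pidd1. They had at most 22 counts in any library. With no filter all 32 members were tested and 5 were called in edgeR: the same 3, Gadd45a and Ei24. Ddb2 had 3 counts in all 8 libraries together. All control libraries were in library pool 1 and all cKO libraries in pool 2, so pool and genotype cannot be told apart. Markers of osteoclasts and of red cells were lower in cKO cartilage (summed levels of 58.8 to 119 against 126 to 457 CPM and 13.4 to 389 against 167 to 917 CPM; 3 of 3 and 4 of 4 tested called lower), and their part in these results was not tested.

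Trp53inp1 rose in cartilage. It measured 10.5, 5.12, 7.34 and 8.75 CPM in controls 1 to 4 and 31.1, 24.5, 18.7 and 24.1 CPM in cKO samples 1 to 4 (a 2.998-fold difference, log2 1.58, SE 0.264, edgeR adjusted p 0.0014). The lowest cKO sample was above the highest control sample, in males and in females. The 2 members that fell were Tnfrsf10b and Sulf2. Tnfrsf10b (chromosome 14, 69767472 to 69784411) measured 39.0, 33.3, 47.7 and 45.3 CPM in control and 24.4, 26.2, 27.7 and 24.98 CPM in cKO (log2 −0.67, SE 0.165, adjusted p 0.0245), the reverse of its direction at day 0. Sulf2 measured 178, 189, 193 and 221 CPM in control and 107.5, 143, 153 and 123 CPM in cKO (log2 −0.57, SE 0.135, adjusted p 0.0202). Neither gene's groups overlapped. Sulf2 alone among the 32 was called lower at day 0, at day 3 and in cartilage, and no member was called higher in all 3 settings. The day 0 call of Sulf2 was slight (log2 −0.08, edgeR adjusted p 0.048) and was lost in 9 of 11 alternatives. In cartilage, the call of Tnfrsf10b was lost without control replicate 1, 3 or 4 or cKO replicate 1, 3 or 4 (adjusted p up to 0.0807), and in DESeq2 (adjusted p 0.132). The cartilage call of Sulf2 was lost without control replicate 2 or 4 or cKO replicate 1 or 4 (adjusted p up to 0.0769). The transcript of Tnfrsf10b shares 405 bases at 97.5% identity with the gene Gm15574, so its counts are uncertain.

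The core of the circuit did not pass the test in cartilage. Cdkn1a measured 536, 609, 557 and 428 CPM in control and 858, 940.2, 534 and 661 CPM in cKO (log2 0.47, SE 0.147, adjusted p 0.0734). Its 2 male cKO samples lay above every control, and the 2 female ones overlapped the controls or lay just above them. Cdkn1a was called in the authors' estimated counts (log2 0.48, adjusted p 0.0406) and without control replicate 3 or cKO replicate 3 (adjusted p 0.0411 and 0.031). Trp53 measured 69.8, 69.96, 81.6 and 98.8 CPM in control and 105.8, 84.0, 79.4 and 81.8 CPM in cKO (log2 0.13, SE 0.154, adjusted p 0.67). Mdm2 measured 68.3, 69.96, 75.2 and 60.8 CPM in control and 82.3, 94.5, 58.9 and 60.3 CPM in cKO (log2 0.10, SE 0.149, adjusted p 0.74). Both overlapped between genotypes. Btg2 and Plk2, higher in cKO cultures at both days, had log2 values of −0.23 and −0.16 in cartilage (adjusted p 0.448 and 0.659). The other members tested ran from −0.48 (Zmat3) to 0.99 (Dram1, adjusted p 0.163, groups apart). Gadd45a (log2 0.59) was called without cKO replicate 3 (adjusted p 0.0299).

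**Figure D4:**
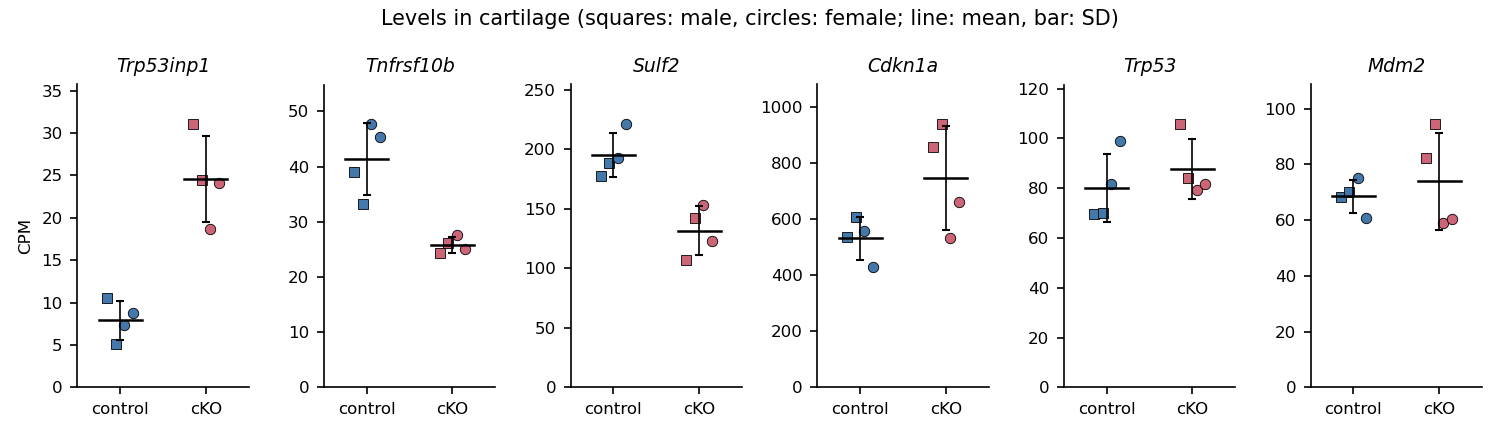
Level of 6 members in each cartilage sample (vertical axis, CPM from 0). Squares are male and circles female samples, the line is the group mean and the bar its SD. Trp53inp1 is apart and higher in cKO, Tnfrsf10b and Sulf2 are apart and lower, and the genotypes overlap for Cdkn1a, Trp53 and Mdm2.

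The members were set beside 5 further lists of genes around the pathway. Of 20 regulators of p53, 19 were tested at day 0, and 8 were called higher and 4 lower, a share near the 64.5% of all genes called. The largest change was in Cdkn2a, whose product Arf blocks Mdm2 and whose other product inhibits cyclin-dependent kinases. It measured 0.587 ± 0.148 CPM in control and 3.49 ± 0.41 CPM in cKO (SD, n = 3 each; log2 2.56, SE 0.196, adjusted p 4.35e-06). The p53 relative Trp63 (log2 0.80) and the p53 kinase gene Hipk2 (0.58) were also higher, and the checkpoint kinase gene Chek2 was lower (−0.52). At day 3, 2 of 19 regulators were called higher and 6 lower, where 48.1% of all genes were called. Cdkn2a was at 24.7 ± 3.11 CPM in control and 52.1 ± 35.9 CPM in cKO (SD, n = 4 each; log2 1.07, adjusted p 0.0499). The largest other values were in Trp63 (1.83, adjusted p 0.048), Chek2 (−0.64) and Cop1 (−0.58), a ubiquitin ligase for p53. The groups overlapped for Trp63 and Cdkn2a. Cdkn2a rose with day in both genotypes, by 5.28 on the log2 scale in control and 3.77 in cKO. In cartilage it had at most 1 count in a library and none of the 13 regulators tested was called in edgeR or DESeq2, with 5 at an unadjusted p under 0.05.

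Of 24 other p53 targets, 15 of 23 tested were called higher and 3 lower at day 0, where 33.0% of all genes were called higher and 31.6% lower. At day 3, 8 of 23 were called higher and 3 lower, and the total was near the 48.1% of all genes called. Sfn (14-3-3 sigma) was called higher in all 3 settings (log2 1.14, 1.19 and 1.04, adjusted p 0.00393, 0.0166 and 0.0282), and Thbs1 was called lower in cartilage (−0.84, adjusted p 0.00382). Among 18 genes of intrinsic apoptosis outside the members, 8 were called higher and 3 lower at day 0 and 6 higher and 4 lower of 17 tested at day 3, beside 64.5% and 48.1% of all genes called. The largest change at each day was that of Bok, a relative of Bax (log2 1.52 and 2.41), with the BH3-only gene Bcl2l11 at day 0 (1.17) and the death antagonist gene Bcl2l1 at day 3 (−0.81). None of the 11 tested in cartilage was called in edgeR or DESeq2, with 3 at an unadjusted p under 0.05.

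Of 9 family relatives of the members, 4 were called higher and 3 lower at day 0, and 2 higher and 2 lower at day 3, beside 64.5% and 48.1% of all genes called in either direction. From day 0 to day 3, 4 rose and 2 fell in control, and 6 rose and 1 fell in cKO. Of all genes, 28.1% were called higher and 28.8% lower in the control change, and 32.4% and 29.8% in the cKO change. Cdkn1c, the p57 relative of Cdkn1a, was lower in cKO at day 0 (517.6 ± 8.99 against 206.5 ± 50.7 CPM; SD, n = 3 each; log2 −1.33, adjusted p 3.07e-05) and at day 3 (924.3 ± 102.6 against 124.6 ± 53.8 CPM; SD, n = 4 each; log2 −2.89, adjusted p 3.18e-04), where its relative Cdkn1a was not called. Sesn3 was lower at both days (log2 −0.45 and −0.77), as were Sesn1 and Sesn2. Gadd45g was higher at both days (0.19 and 1.18), while Gadd45a was lower and then higher. In cartilage 1 of the 9 was called, Gadd45b (log2 −0.65, adjusted p 0.0278).

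Cell cycle genes that p53 lowers through p21 and the DREAM repressor complex were mostly higher, not lower, in cKO at day 0. In edgeR and in DESeq2, 17 of 20 were called higher and none lower. Of all genes, edgeR called 33.0% higher and 31.6% lower. None of the 20 was lower at an unadjusted p under 0.05 (median log2 0.46, against 0.01 over all genes). The largest values belonged to the mitotic genes Bub1b (0.66), Kif23 (0.57), Aurka (0.57) and Plk1 (0.56). At day 3 none was called higher in edgeR or DESeq2, or at an unadjusted p under 0.05, and 2 were called lower, Mcm2 (−0.86) and E2f1 (−0.61). Of all genes, 25.5% were called higher and 22.6% lower at day 3. The median log2 fold change over the 20 genes was 0.24 at day 3, against 0.01 over all genes. The cell cycle genes fell from day 0 to day 3 in both genotypes (19 of 20 called in control and 20 of 20 in cKO, median log2 −2.00 and −2.14). Of all genes, 28.8% in control and 29.8% in cKO were called lower. The falls were led by Cdc25c, Ccna2 and Mki67, while Cdkn1a rose. In cartilage none of the 15 tested was called in edgeR or DESeq2, with 1 at an unadjusted p under 0.05.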

How the data were processed

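RNA-seq of 22 samples was used: 14 chondrocyte cultures and 8 cartilage samples. For the cultures the authors deposited estimated counts per gene, 1 table per day, rounded here to whole numbers. For cartilage the authors deposited whole-number counts per gene, used as the main values, and estimated counts, used as an alternative. Culture libraries were stranded (NEBNext Ultra II Directional) and cartilage libraries were barcoded 3′ libraries with molecular identifiers (BRB-seq), per the labels' protocols. The submitters' processing notes name the build GRCm38 and, for cartilage, UMI-tools 1.1.1, Trim Galore 0.6.7, HISAT2 2.2.1, featureCounts 2.0.1 and DESeq2 1.34.0, without saying which table each made. The aligner and counter of the cultures, and whether counting used strand, are not given in the sources used here. Exons of Bax, Cdkn1a, Ddb2, Ei24, Ephx1, Gadd45a, Plk3, Rrm2b and Sulf2 overlap another gene by 72 to 734 bases, and Trp53 shares 353 bases at 97.7% identity with a pseudogene (blastn 2.17.0), so some of their counts may belong to the other gene, in a share that was not measured.

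Symbols came from GENCODE M21 (34582 of 34866 culture identifiers and 23884 of 23911 cartilage identifiers matched). Genotype was tested at day 0, at day 3 and in cartilage (sex as covariate), each on its own samples. Both day changes and the interaction came from 1 fit of the 14 cultures. The test was edgeR 4.0.16's quasi-likelihood test in R 4.3.3 with TMM scaling, filterByExpr (10 counts, 15 in total) and p-values adjusted by Benjamini-Hochberg across every gene that passed the filter. A gene was called where this adjusted p was below 0.05. Adjusted p values are edgeR's where no tool is given beside them. SE was taken as the size of the log2 value over the root of its F. The biological coefficient of variation was 0.077 at day 0, 0.220 at day 3, 0.149 in cartilage and 0.179 in the 14 cultures. The fits were tested on simulated data. A simulated 1.5-fold change was recovered in 68.7% of the changed genes at day 0, 13.4% at day 3, 23.9% in cartilage and 11.9% for the interaction. For a 4-fold change these shares were 97.0%, 87.9%, 92.4% and 81.8%. A small change can thus be called at day 0 and missed in the other comparisons.

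At most 3 counts, taken as the floor, corresponded to 0.058 to 0.0719 CPM at day 0, 0.159 to 0.208 at day 3 and 1.59 to 2.73 in cartilage, which covers counting error only. Reads amplified by PCR are not independent molecules. The labels call the culture samples biological replicates, and nothing says whether they came from separate animals, so p-values measure the spread between these samples. The members, the other lists and their order by role were chosen with earlier results of these data known. Values per sample were printed for members called in at least 2 genotype comparisons, the 5 largest called changes per genotype comparison, the largest interactions, and Trp53, Cdkn1a and Mdm2. Of the other lists, up to 4 called genes with the largest change per comparison were named. A gene of these lists is not reported here. Alternatives were DESeq2 1.42.0, RLE scaling, no filter, a replicate block, other sample sets, and leaving out each library.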

Additional observations from a re-analysis of the deposited data

Results flagged for a closer look

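A sample stood far from the rest of its group (Dixon's test at the 95% level) in 12 of 128 groups of 4 values, where chance flags about 1 in 20. Of the 12, 6 were in replicate 4 of the cKO cultures at day 3, in each case the highest of its group: Ccng1 at 542.8 CPM against 404.7 to 412.7, Ephx1 at 383.7 against 204.7 to 217.8, Pmaip1 at 21.5 against 10.4 to 11.5, Polk at 75.29 against 38.6 to 42.8, Rrm2b at 26.65 against 18.1 to 18.6, and Tnfrsf10b at 89.87 against 65.9 to 67.6. This library held the highest cKO value in 18 of the 32 members and the lowest in 9. In replicate 1 of the day 3 controls, Ckap2 was at 34.63 CPM against 13.3 to 15.7.

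In cartilage, cKO replicate 3 was low for Bbc3 (16.06 against 24.1 to 25.2 CPM) and high for Dram1 (22.3 against 8.61 to 10.5 CPM). Control replicate 2 was high for Xpc (8.532 against 1.83 to 2.57 CPM). Ddb2 was at 1.03 CPM in control replicate 4 and at 0.892 CPM in cKO replicate 3 and at 0 in the other samples, values under the floor of 3 counts.

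The effect of Dnmt1 deletion differed between the days, by the interaction term, for 15 members. As the day 3 minus the day 0 log2 fold change, the values were −1.37 for Trp53inp1, −1.151 for Eda2r, −1.073 for Cdkn1a, −0.8817 for Ephx1, −0.7916 for Bbc3, −0.7715 for Sulf2, −0.7039 for Ccng1, −0.6736 for Phlda3, −0.6487 for Apaf1, −0.5612 for Ei24, −0.5327 for Tnfrsf10b, −0.5121 for Zmat3, −0.3817 for Bax, 0.8445 for Gadd45a and 0.8385 for Dram1.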

How the results depend on the processing

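No called value of a member changed sign under any alternative run in the 6 comparisons. The number of called members ranged over all alternatives from 22 to 29 at day 0 (29 as reported), 10 to 19 at day 3 (16), 1 to 5 in cartilage (3), 24 to 26 for the control day change (25), 21 to 25 for the cKO day change (25) and 11 to 19 for the interaction (15). Leaving out 1 library gave 27 to 28, 10 to 18, 1 to 4, 24 to 26, 21 to 25 and 11 to 19. Cartilage fell to 1 called member without control replicate 4, cKO replicate 1 or cKO replicate 4, and rose to 5 with no filter on low counts, which added Gadd45a and Ei24. With no filter, 1044 genes were called in cartilage against 544 with it, while DESeq2 called 357 and the fit without cKO replicate 4 called 362. The fit of all 14 cultures called 6260 genes at day 0 against 10023 in the day 0 samples alone. Without cKO day 3 replicate 4 the interaction was called for 4051 genes against 2509, and without control day 0 replicate 2 or 3 or cKO day 0 replicate 3 for 1591, 1668 and 1604. Replicate numbers were treated as no pairing: same-numbered samples correlated from −0.0634 to 0.14 at day 0, −0.145 to −0.064 at day 3 and −0.0819 to 0.265 in cartilage, and 2 of 6, 0 of 8 and 5 of 8 samples correlated best with their own number. With the replicate number as a block, 28, 14, 3, 25, 23 and 15 members were called in the order above. In cartilage, the filter on low counts left 9 members out of the test, and libraries there held the fewest counts.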
